A study of Mus musculus with 6 samples.

Results

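The genes described here are the 10 mouse genes Jak1, Jak3, Stat5a, Stat5b, Socs1, Socs2, Socs3, Cish, Pim1 and Pim2, chosen by name from the 55536 genes of a count table of thymocyte RNA. Each symbol matched 1 gene, and all 10 passed the filter on low counts that left 18690 genes for testing. Thymocytes are the developing T cells of the thymus. The table holds 6 libraries, 1 per untreated mouse in steady state: 3 of the wildtype genotype Il3ra+/+ and 3 labelled Il3ra-/-, a knockout of the interleukin-3 receptor's alpha chain. The sources used here give no age, strain or deleted exon. Values are CPM, read counts brought to a common library size after TMM scaling, which corrects for differences in composition, and are listed for replicates 1 to 3 of each genotype.

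Cytokine receptors without an enzyme of their own use Janus kinases, or JAKs, bound to their tails. In the receptors that share the common gamma chain, such as those for interleukin-7 and interleukin-2, JAK1 and JAK3 phosphorylate STAT5A and STAT5B, which dimerise and bind DNA. The interleukin-3 receptor signals to STAT5 mainly through JAK2. STAT5 and other STATs induce the SOCS genes and Cish, whose proteins bind receptors or JAKs and end the signal, and the Pim genes, which encode kinases that favour survival and growth. In the thymus, interleukin-7 supports the earliest thymocytes, SOCS1 restrains cytokine signals in the double-positive stage, and cytokine signals return in the single-positive stages.

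STAT5 dimers bind the palindrome TTCNNNGAA, where N is any base, which reads the same on both strands. In the RefSeq promoter windows (GRCm38.p6, 250 bases before to 50 bases from the start), 9 of the 10 genes had at least 1 window, 12 windows in all. Matches lay in 2 genes, Cish and Socs3, both feedback genes. Of all 32851 windows of that length, 8.30% held a match. The windows of the JAK, STAT5 and PIM genes and of Socs1 held none, and the same palindrome with 4 bases between its arms was in no window of the 10 genes, against 6.95% of all windows. The matched stretches are shown 5′ to 3′ on the gene's strand, with the matches in capitals.
Cish, chr9:107296654-107296683, plus strand: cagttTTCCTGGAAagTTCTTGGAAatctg
Socs3, chr11:117969502-117969531, minus strand: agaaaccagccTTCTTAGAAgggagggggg
The Cish window held 2 matches, and 0.457% of all windows held 2 or more. They lie at 107296659 to 107296667, starting at the RefSeq start base, and at 107296670 to 107296678, both within an exon (5′ UTR) of a longer GENCODE transcript. The Socs3 match lies at 117969512 to 117969520, in an intron of a GENCODE transcript of that gene. The bases just after the RefSeq start of the Socs3 window occurred in no GENCODE transcript of Socs3, while those of Cish did occur in one of Cish. A match describes letters only and was not measured as a binding site.

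Total counts ran from 55747682 to 82684219 per library. Il3ra itself was not lower in the libraries labelled Il3ra-/-, with 465, 376 and 399 counts in wildtype and 481, 673 and 514 in those labelled knockout, and counts over the whole gene cannot show a missing exon. This gene thus gives no check of the labels, and directions below are those of the labelled libraries. Replicate 1 of each genotype was high in Xist, the RNA of the inactive X chromosome (88078 and 128236 counts, against 8 to 57 in the other 4). All 10 thymocyte markers, among them Cd4, Cd8a and Rag1, were present in every library, with a summed level of 13030 to 14294 CPM in Il3ra+/+ and 11583 to 12233 CPM in labelled Il3ra-/-. In bulk RNA, fewer cells of a type and less RNA per cell cannot be told apart.

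No genotype difference in the 10 genes passed the test. By edgeR's quasi-likelihood test 0 of 10 passed a Benjamini-Hochberg adjusted p of 0.05 (smallest adjusted p = 0.406), against 0.091% of all tested genes. At an unadjusted p under 0.05 there were 0 of 10, against 14.6% of all tested genes. DESeq2 called 0 of 10, against 3.82% of the genes it tested, and limma-voom called 0. The fitted fold was lower in the labelled knockout for 9 of the 10 and higher for Socs2, where 48.8% of all tested genes were fitted lower. Stat5b and Cish alone had all labelled knockout libraries below all wildtype libraries. Such a gap in that direction was found in 2 of 10 genes, against 9.38% of tested genes (20.3% in either direction).

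**Figure D1:**
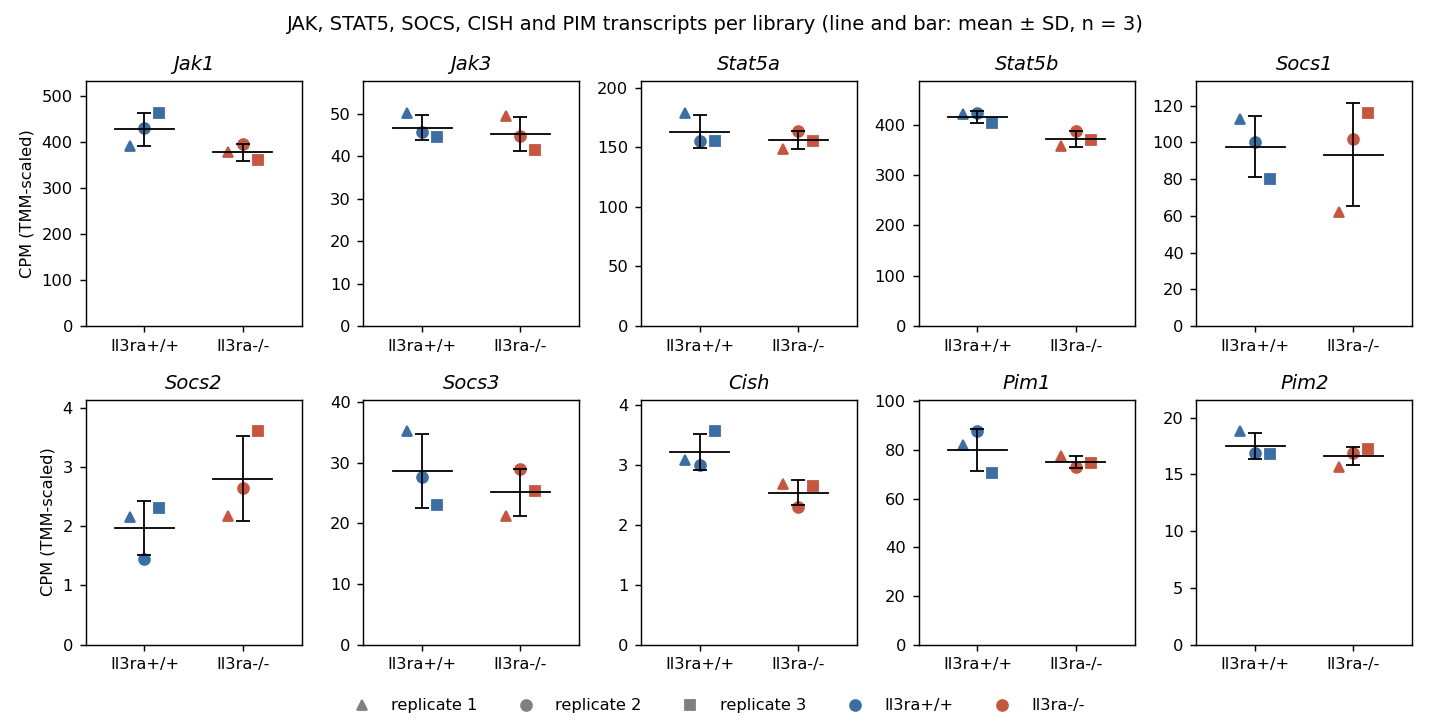
TMM-scaled CPM of each gene (vertical axes, from 0) in the 3 Il3ra+/+ libraries (blue) and the 3 labelled Il3ra-/- (red), with marker shape for the replicate number and mean ± SD in black. Stat5b and Cish show no overlap between genotypes, and Socs1 shows the widest spread among the labelled knockout libraries, from 61.9 to 116 CPM.

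The JAK genes were of unlike abundance and each overlapped between genotypes. Jak1 (ENSMUSG00000028530, chromosome 4, 101152367 to 101265282, minus strand) encodes the kinase shared by gamma chain, gp130 and interferon receptors. It had 391, 430 and 463 CPM in Il3ra+/+ and 377, 396 and 360 CPM in labelled Il3ra-/-. The ranges met only through wildtype replicate 1, which lay below labelled knockout replicate 2. The means were 428 ± 36.2 and 378 ± 17.9 CPM (SD, n = 3 each), and the fold was 0.882 (95% interval 0.753 to 1.03; edgeR, adjusted p = 0.453). Jak3 (ENSMUSG00000031805, chromosome 8, 71676296 to 71690575, plus strand) encodes the kinase bound to the common gamma chain. It had 50.3, 45.7 and 44.5 CPM in Il3ra+/+ and 49.6, 44.9 and 41.6 CPM in labelled Il3ra-/-. Replicate 1 was the highest library of each genotype, and the fold was 0.968 with an interval of 0.830 to 1.13 (edgeR, adjusted p = 0.870). Exons of Jak3 share 404 bases with Insl3 on the same strand, so reads there could be assigned to either or left out.

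Stat5a and Stat5b are neighbours on chromosome 11 and encode the DNA-binding ends of the pathway. Stat5b (ENSMUSG00000020919, 100780731 to 100850724, minus strand) had 422, 423 and 403 CPM in Il3ra+/+ and 357, 388 and 369 CPM in labelled Il3ra-/-. All 3 labelled knockout libraries lay below the lowest wildtype library, by a margin of 403 against 388 CPM. Its means were 416 ± 11.7 and 371 ± 15.5 CPM (SD, n = 3 each), and the fold of 0.893 had an interval of 0.772 to 1.03 (edgeR, adjusted p = 0.458). Stat5a (ENSMUSG00000004043, 100859351 to 100885169, plus strand) had 179, 156 and 155 CPM in Il3ra+/+ and 149, 164 and 155 CPM in labelled Il3ra-/-. Wildtype replicate 1 was the highest and the remaining 5 libraries mixed, at a fold of 0.956 and an interval of 0.828 to 1.10 (edgeR, adjusted p = 0.793). Its last exon overlaps Stat3 on the opposite strand by 72 bases. Of the 10 thymocyte markers 8 were fitted lower, as was Stat5b, and 0 passed edgeR's test. Of the 10, 7 were lower without overlap between genotypes, against 9.38% of all tested genes. The part of cell content in the Stat5b values was not tested.

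Per kilobase of annotated exon, Stat5b exceeded Stat5a in every library. The ratio of the RPKM levels was 3.04, 3.51 and 3.34 in wildtype and 3.09, 3.05 and 3.06 in the labelled knockout. With the length of the longest principal transcript of each gene in place of all exons, a choice made after the data were seen, the ratio was 1.76 to 2.03 in wildtype and 1.77 to 1.79 in the labelled knockout. The excess of Stat5b over Stat5a therefore held with both lengths, while its size followed the length used. Jak1 exceeded Jak3 by 5.76, 6.96 and 7.71 times in wildtype and 5.63, 6.53 and 6.41 times in the labelled knockout on the RPKM scale. The genotypes overlapped in both ratios.

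Cish and Socs2, both inhibitors that bind cytokine and growth hormone receptors, were the scarcest of the 10 and had the largest fitted folds, in opposite directions. Cish (ENSMUSG00000032578, chromosome 9, 107296026 to 107302784, plus strand) had 3.09, 2.99 and 3.55 CPM in Il3ra+/+ and 2.68, 2.29 and 2.64 CPM in labelled Il3ra-/-, from 162 to 232 counts per library. Every labelled knockout library lay below every wildtype library. The means were 3.21 ± 0.301 and 2.54 ± 0.216 CPM (SD, n = 3 each), and the fold was 0.789 (interval 0.585 to 1.06; edgeR, adjusted p = 0.453). Models on the opposite strand overlap 261 and 479 bases of its exons. Socs2 (ENSMUSG00000020027, chromosome 10, 95385362 to 95417180, minus strand) had 2.16, 1.45 and 2.31 CPM in Il3ra+/+ and 2.18, 2.65 and 3.61 CPM in labelled Il3ra-/-. The groups overlapped, since labelled knockout replicate 1 lay among the wildtype libraries. The fold was 1.42 with an interval of 0.951 to 2.12 (edgeR, adjusted p = 0.406), and its log2 value of 0.51 was 0.29 without labelled knockout replicate 3 and 0.33 without wildtype replicate 2.

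Socs1 and Socs3 encode inhibitors that block the JAK active site. Socs1 (ENSMUSG00000038037, chromosome 16, 10782240 to 10785536, minus strand) had 113, 100.3 and 80.0 CPM in Il3ra+/+ and 61.9, 102 and 116 CPM in labelled Il3ra-/-. The lowest and the highest library both carried the knockout label, so that the wildtype range lay inside that of the labelled knockout. The means were 97.7 ± 16.5 and 93.2 ± 28.0 CPM (SD, n = 3 each), and the interval of the fold ran from 0.655 to 1.39 (edgeR, adjusted p = 0.926). The log2 fold of Socs1 was -0.067, and 0.16 when labelled knockout replicate 1 was left out. Socs3 (ENSMUSG00000053113, chromosome 11, 117966079 to 117970047, minus strand) had 35.1, 27.6 and 23.0 CPM in Il3ra+/+ and 21.1, 28.9 and 25.2 CPM in labelled Il3ra-/-. Its highest library was wildtype replicate 1 and its lowest labelled knockout replicate 1, with a fold of 0.879 and an interval of 0.686 to 1.13 (edgeR, adjusted p = 0.638). Its log2 fold of -0.19 became -0.010 or -0.32 when wildtype replicate 1 or 3 was omitted, and -0.074 or -0.29 when labelled knockout replicate 1 or 2 was.

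Over the 6 libraries the Pim genes had the narrowest ranges of the feedback genes, with highest-to-lowest ratios of 1.24 for Pim1 and 1.20 for Pim2. Pim1 (ENSMUSG00000024014, chromosome 17, 29490753 to 29496112, plus strand) had 82.0, 87.6 and 70.4 CPM in Il3ra+/+ and 77.6, 72.9 and 74.5 CPM in labelled Il3ra-/-. The labelled knockout libraries fell within the wildtype range, and the fold was 0.937 with an interval of 0.804 to 1.09 (edgeR, adjusted p = 0.708). An antisense model overlaps 488 bases of its exons. Pim2 (ENSMUSG00000031155, chromosome X, 7878262 to 7883432, plus strand) had 18.8, 16.9 and 16.8 CPM in Il3ra+/+ and 15.7, 16.9 and 17.3 CPM in labelled Il3ra-/-. Replicate 1 was the highest library in wildtype and the lowest in the labelled knockout, and both were high in Xist. The fold was 0.950 with an interval of 0.804 to 1.12 (edgeR, adjusted p = 0.798).

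**Figure D2:**
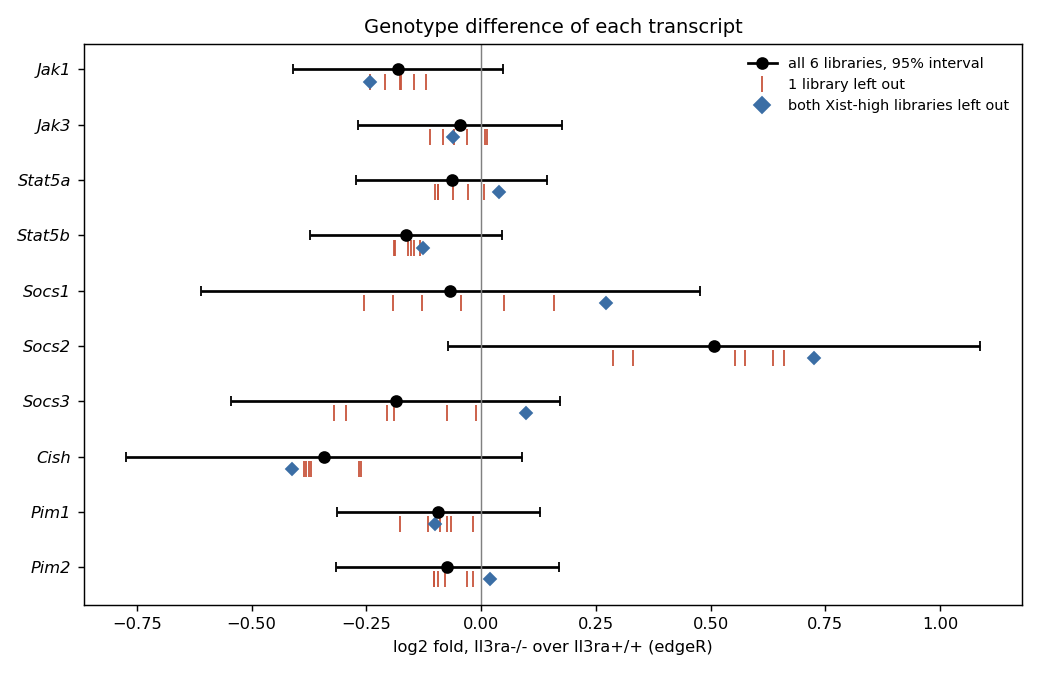
Log2 fold of each gene, labelled Il3ra-/- over Il3ra+/+ (horizontal axis), with the 95% interval from all 6 libraries (black), the values with 1 library left out (red ticks) and without both Xist-high libraries (blue diamonds). All 10 intervals include 0, and the diamonds of Stat5a, Socs1, Socs3 and Pim2 lie on the other side of 0 from the black points.

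Kinases and STAT5 genes were next set beside the induced feedback genes. The 4 JAK and STAT5 genes had a median log2 fold of -0.11 (range -0.18 to -0.046) and the 6 SOCS, CISH and PIM genes one of -0.083 (range -0.34 to 0.51), where the median over all tested genes was 0.0082. The mean deviation of the 4 JAK and STAT5 genes from their level over all libraries was 0.090, 0.041 and 0.039 in wildtype and -0.054, -0.0088 and -0.11 in the labelled knockout, on the log2 scale. That of the 6 feedback genes was 0.16, -0.043 and -0.043 in wildtype and -0.20, 0.0052 and 0.12 in the labelled knockout. The mean of the first set did not overlap between genotypes, at 0.039 against -0.0088 where they came nearest, while of its single genes Stat5b alone did not. How often means of 4 genes show such a gap was not tested. The mean of the second set ranged more widely and overlapped. Leaving out wildtype replicate 1 took the median of the first set to -0.073. Omitting wildtype replicate 1 or 3 gave the second set a median of -0.014 or -0.18, and omitting labelled knockout replicate 1 or 3 gave -0.053 or -0.15.

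Without both Xist-high libraries the median of the feedback genes was 0.059 and that of the JAK and STAT5 genes -0.094. In that fit Socs2 had a log2 fold of 0.72 and Jak1 one of -0.24 (edgeR, unadjusted p = 0.0288 and 0.0485; adjusted p = 0.139 and 0.181). These 2 of 10 at an unadjusted p under 0.05 compare with 27.2% of all genes in the same fit. Socs1 had 0.27, Socs3 0.098, Stat5a 0.039 and Pim2 0.020, each fitted lower with all 6 libraries. Cish at -0.41 and Stat5b at -0.13 kept their direction, and still 0 of 10 genes passed.

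The highest correlations across the libraries were among Stat5a, Socs1, Socs3 and Pim2, though not for every pair of them. Over the 6 libraries Pearson's r of the log2 CPM was 0.94 between Stat5a and Socs3, 0.90 between Stat5a and Pim2, 0.89 between Socs3 and Pim2, and 0.80 between Socs1 and Pim2. These were the 4 highest of 45 pairs, they are a description of 6 libraries that share 1 scaling, and the same 4 pairs led after each genotype was centred on its own mean (0.93, 0.89, 0.87 and 0.84). All 4 genes were lowest in labelled knockout replicate 1, and Stat5a, Socs3 and Pim2 were highest in wildtype replicate 1. The pair Stat5a and Socs1 had an r of 0.64, and 0.63 after that centring. Stat5b, outside these 4 genes, had 0.69 with Socs3 and 0.47 with Socs1, which became 0.84 and 0.72. Socs2 had an r of -0.72 with Pim1 and -0.61 with Stat5b, which became -0.65 and -0.11 after that centring. With Pim2, Socs1, Stat5a and Socs3 the centred r of Socs2 was 0.58, 0.46, 0.34 and 0.16. Cish had an r of 0.53 with Stat5b and -0.059 with Socs3. After centring these were -0.94 and -0.77, the lowest of the 45 pairs, so Stat5b and Cish ran opposite within the genotypes in these 6 libraries. Cish had only 162 to 232 counts per library, and the part of counting precision in these values was not tested.

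**Figure D3:**
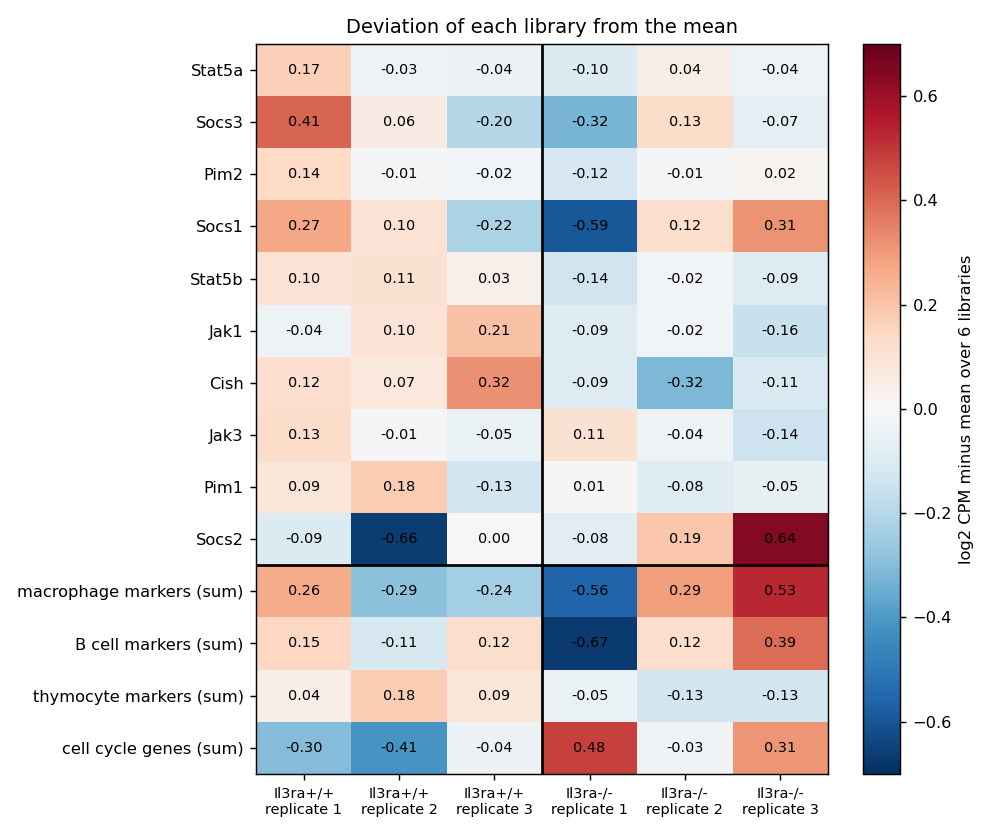
Deviation of each library (columns) from the mean over the 6 libraries, in log2 CPM, for the 10 genes (upper rows) and for summed markers (lower rows), with red above and blue below the mean. Labelled knockout replicate 1 is lowest for Socs1 (-0.59) and for the summed macrophage (-0.56) and B cell (-0.67) markers.

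Markers of other cells also differed between the libraries. All 8 macrophage markers were present, with summed levels of 78.0, 53.3 and 55.1 CPM in Il3ra+/+ and 44.1, 79.5 and 93.8 CPM in labelled Il3ra-/-, and Mertk alone averaged under 1 CPM. All 6 B cell markers were present, at summed levels of 50.2, 41.9 and 49.5 CPM in Il3ra+/+ and 28.5, 49.4 and 59.6 CPM in labelled Il3ra-/-. Both lists and Socs1 were lowest in labelled knockout replicate 1 and highest in labelled knockout replicate 3. That replicate 1 was also lowest in the summed dendritic cell (582 CPM, of which Ccr9 made 570), single-positive thymocyte (331 CPM) and erythroid (1.85 CPM) markers. Their highest libraries were wildtype replicate 3, labelled knockout replicate 2 and wildtype replicate 2, respectively. The summed cell cycle genes were 2189, 2031 and 2621 CPM in Il3ra+/+ and 3759, 2654 and 3342 CPM in labelled Il3ra-/-, highest in labelled knockout replicate 1. All 5 granulocyte markers were present, with summed levels of 34.2, 56.8 and 17.4 CPM in Il3ra+/+ and 41.9, 20.7 and 227 CPM in labelled Il3ra-/-, and Ly6g alone averaged under 1 CPM. Labelled knockout replicate 3, the highest in granulocyte markers, was also the highest in Socs2, at 3.61 CPM. Wildtype replicate 2, the next highest in granulocyte markers, was the lowest in Socs2, at 1.45 CPM. All 7 gamma delta T cell markers were present and fitted higher in the labelled knockout, and 0 passed edgeR's test. Of the 7, 5 were higher without overlap between genotypes, against 10.9% of all tested genes. Their summed levels were 217 to 287 CPM in Il3ra+/+ and 305 to 359 CPM in labelled Il3ra-/-, with Il23r alone averaging under 1 CPM. The part of these cells or states in the values of Socs1, Socs2 and Socs3 was not tested.

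Within their families, compared per kilobase of annotated exon, the 10 genes ranged from the most to the least abundant member. Jak1 led the JAK genes at 49.8 to 64.1 RPKM over the 6 libraries, above Jak2 at 15.6 to 19.8 RPKM. Jak3 (7.77 to 9.39 RPKM) and Tyk2 (7.29 to 8.93 RPKM) overlapped. Stat5b led the 6 STAT genes compared, at 64.5 to 76.5 RPKM, followed without overlap by Stat6, the mediator of interleukin-4 signals, at 33.8 to 44.2 RPKM and Stat5a at 20.9 to 25.1 RPKM. Stat3 and Stat2 overlapped below them, and Stat4 was lowest, at 2.94 to 4.91 RPKM. Among the 8 SOCS family genes Socs1 led at 21.3 to 39.9 RPKM, and Socs3 at 7.31 to 12.1 RPKM overlapped both Socs4 above it and Socs7 below it. Cish (0.356 to 0.554 RPKM) and Socs2 (0.153 to 0.378 RPKM) came last, below Socs6 and Socs5, and overlapped each other. Pim1 at 20.9 to 26.1 RPKM exceeded Pim3 at 8.37 to 12.7 RPKM and Pim2 at 5.61 to 6.72 RPKM.

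The length used bears on the scarce genes. With principal transcript lengths Socs2 averaged 1.08 and Cish 1.01 RPKM, in place of 0.251 and 0.448 RPKM, since their annotated exons of 9531 and 6419 bases are far longer than principal transcripts of 2222 and 2850 bases. Pim2 then averaged 15.3 RPKM, above Pim3 at 10.4 RPKM, and Stat5a at 38.3 to 46.0 RPKM overlapped Stat6 at 39.4 to 51.5 RPKM. Jak1, Stat5b, Socs1 and Pim1 led the genes compared in their families with both lengths.

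**Figure D4:**
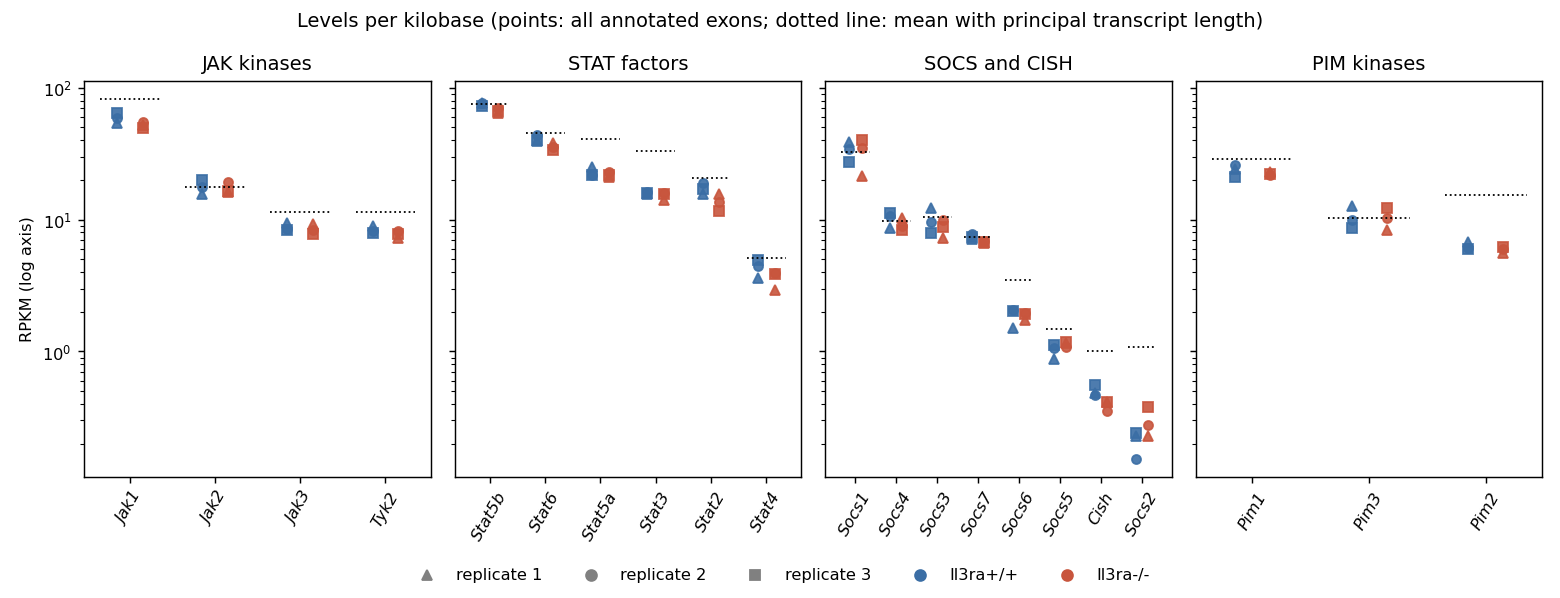
RPKM on a log axis for the genes of 4 families in each library (blue Il3ra+/+, red labelled Il3ra-/-, marker shape for the replicate), ordered by mean, with dotted lines at the mean obtained with the principal transcript length. Stat5b, Jak1, Socs1 and Pim1 lead the genes shown of their families, and Cish and Socs2 lie lowest in theirs.

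Of 34 other genes of the pathway (receptor chains, other JAK, STAT, SOCS and PIM genes, phosphatases and PIAS proteins), 0 passed edgeR's test (smallest adjusted p = 0.143). Their median log2 fold was -0.033, with 21 fitted lower and 13 higher. At an unadjusted p under 0.05 there were 4 lower and 2 higher, against 6.60% and 8.01% of all tested genes. DESeq2 called 2 lower and 1 higher, Il4ra, Il2rg and Il9r, against 1.26% and 2.56% of the genes it tested. All labelled knockout libraries lay below all wildtype libraries for 5 of the 34, against 9.38% of tested genes. These were Il4ra, Il2rg, Il21r, Stat6 and Socs7. All labelled knockout libraries lay above all wildtype libraries for Il9r alone, against 10.9% of tested genes.

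Il2rg encodes the common gamma chain to which JAK3 binds. It had 200, 190 and 201 CPM in Il3ra+/+ and 150, 153 and 153 CPM in labelled Il3ra-/-, with little spread within either genotype. The fold was 0.771 (edgeR, adjusted p = 0.145; DESeq2, adjusted p = 0.0103). Il4ra, the interleukin-4 receptor chain that pairs with it, had 172, 166 and 163 CPM in Il3ra+/+ and 106, 136 and 124 CPM in labelled Il3ra-/-, a fold of 0.729 (edgeR, adjusted p = 0.143; DESeq2, adjusted p = 0.00870). Il9r, the interleukin-9 receptor chain, had 6.47, 3.34 and 4.92 CPM in Il3ra+/+ and 9.09, 8.23 and 9.46 CPM in labelled Il3ra-/-. Its fold was 1.82 (adjusted p = 0.151 by edgeR and 0.00500 by DESeq2), and it passed edgeR's test without both Xist-high libraries (adjusted p = 0.0354). That smaller fit called 762 of the 19127 genes it tested, and 2 of the 34 other pathway genes, Il9r and Stat2.

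Stat2, a mediator of type I interferon signals, had 93.1, 113 and 100.4 CPM in Il3ra+/+ and 93.3, 81.1 and 69.2 CPM in labelled Il3ra-/-, overlapping only through replicate 1 of each genotype. Its adjusted p was 0.253 by edgeR and 0.147 by DESeq2. Without both Xist-high libraries it was 0.0435 by edgeR, in the fit that called 762 of 19127 genes. The summed thymocyte markers were lower in each labelled knockout library than in any wildtype library, as were Il2rg and Il4ra, although 2 of the 10 markers, Ptcra and Dntt, were fitted higher and 0 passed edgeR's test. The part of cell content in these receptor values was not tested. For Jak3, whose protein works with that of Il2rg, the fold of 0.968 given above stood beside 0.771 for Il2rg, and the difference between the folds was not tested.

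**Figure D5:**
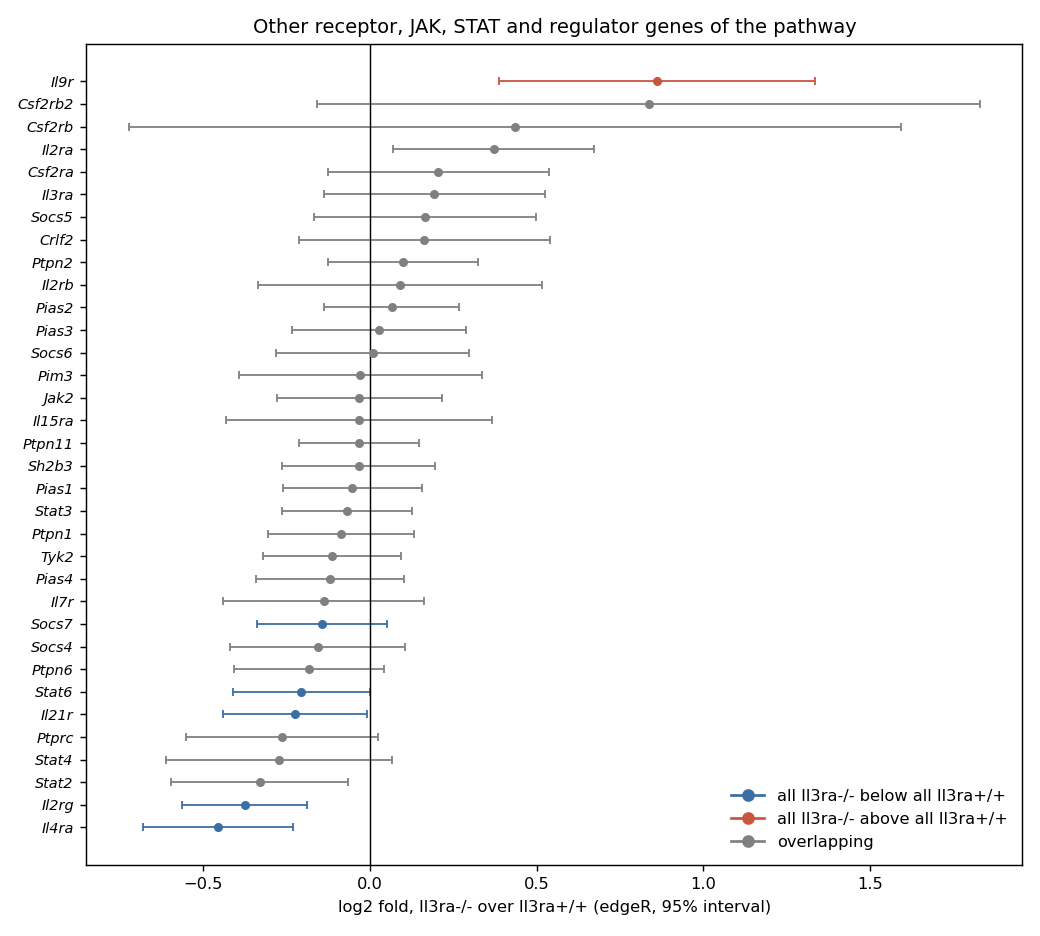
Log2 fold (labelled Il3ra-/- over Il3ra+/+) with 95% interval for the 34 other pathway genes, in blue where every labelled knockout library lay below every wildtype library, in red where above, in grey where the genotypes overlapped. Il4ra and Il2rg are the lowest and Il9r is the highest, and none passed edgeR's adjusted threshold.

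Of 17 listed genes outside the 10 that are known to respond to STAT5, 15 were matched and tested, and 0 passed edgeR's test. Their fitted folds were lower for 6 and higher for 9, with a median log2 fold of 0.052. The list holds Bcl6, which STAT5 represses, beside genes it induces, so these pooled values give no direction of STAT5 activity. Il2ra is also among the 34 other pathway genes and is counted in both lists. At an unadjusted p under 0.05 there were 2 lower and 4 higher, where 6.60% and 8.01% of all tested genes were. DESeq2 called 1 lower and 2 higher, against 1.26% and 2.56% of the genes it tested. The genotypes did not overlap in 2 lower and 2 higher genes, against 9.38% and 10.9% of tested genes. Bcl6, a transcriptional repressor that STAT5 represses, had 154, 190 and 168 CPM in Il3ra+/+ and 126, 120 and 123 CPM in labelled Il3ra-/-. Cdkn1a, a cell cycle inhibitor, had 3.76, 3.60 and 4.04 CPM in Il3ra+/+ and 5.14, 6.73 and 6.08 CPM in labelled Il3ra-/-. The genotypes did not overlap in either gene, nor in the growth regulator Myc at 61.6 ± 5.59 and 85.4 ± 6.83 CPM (SD, n = 3 each).

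The adjusted p-values of Bcl6, Myc and Cdkn1a were 0.138, 0.139 and 0.156 by edgeR and 0.00407, 0.00952 and 0.0173 by DESeq2. Il2ra, the interleukin-2 receptor alpha chain and also a marker of early thymocytes, had 46.5, 58.3 and 68.7 CPM in Il3ra+/+ and 68.2, 82.9 and 73.3 CPM in labelled Il3ra-/-. The groups met between wildtype replicate 3 and labelled knockout replicate 1 (edgeR, adjusted p = 0.257). The summed cell cycle genes were higher in each labelled knockout library than in any wildtype library. All 7 were fitted higher, and 6 did so without overlap between genotypes, against 10.9% of all tested genes. Of the 7, 0 passed edgeR's test and DESeq2 called 6, against 2.56% of the genes it tested. The part of the cell cycle in the values of Myc, Bcl6 and Cdkn1a was not tested.

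The genes most like Cish were sought among 13947 tested genes of at least 1 CPM by Pearson's r of log2 CPM over the 6 libraries. The leading 5 were Reps1 (r = 0.99), Ubqln4 (0.98), Thy1 (0.98), Fam209 (0.97) and Tigar (0.97), and 32 genes had r above 0.9. Thy1, one of the thymocyte markers, had 1941 ± 44.7 CPM in Il3ra+/+ and 1751 ± 72.9 CPM in labelled Il3ra-/- (SD, n = 3 each). With 6 points and that many genes, high values arise for many pairs, and these describe the pattern over these libraries only. An r does not give the size of a difference: Reps1 ran from 63.0 to 66.8 CPM and Cish from 2.29 to 3.55 CPM.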

How the data were processed

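RNA of thymocytes was isolated with a column kit and made into stranded, poly(A)-selecting libraries, per the labels' protocols. STAR 2.5.4b and featureCounts were used on GRCm38, per the submitters' processing notes. The sources used here do not give the strand setting or annotation release of the counting, so reads of antisense or overlapping models cannot be told apart. Per the file headers, the deposited values are raw counts, with 1 row per Ensembl gene and 1 column per library. All 55536 identifiers matched GENCODE M21.

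The whole table was fitted: filterByExpr at its defaults, TMM, then edgeR 4.0.16 (glmQLFit, robust, and glmQLFTest, R 4.3.3), no covariate, Benjamini-Hochberg adjustment over 18690 genes and a threshold of 0.05. Folds are labelled Il3ra-/- over Il3ra+/+. RPKM are CPM per kilobase of all annotated exons. The test was also run on simulated counts with known folds, drawn independently and without the Xist difference of these libraries. That run checked the code only and cannot show how the test behaves on these libraries. Alternatives were DESeq2 1.42.0, limma-voom (limma 3.58.1), other scalings, filters and designs, and the omission of libraries. The counts of Pim2 lay within 10% of those of its neighbour Tfe3, which is no copy of it; no other of the 10 genes had such a neighbour within 1 Mb. Libraries of 1 genotype were no duplicates (chi-square of 48.6 to 114 per degree of freedom).

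The genes, lists and alternatives were chosen with earlier results of these data known. Named beside the 10 genes were Il3ra, up to 4 genes of smallest p in each list, and the 5 genes most like Cish; family members compared by level, genes completing a count, and markers were named after their values were seen. Trgc1 and Trgc2 matched no symbol, and 1 gene of the pathway list is not reported here. Counting precision was lowest for Socs2 and Cish, at 84 to 251 counts per library.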

Additional observations from a re-analysis of the deposited data

How the results depend on the processing

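None of the 10 genes passed its test under any of the 15 alternatives run, and Jak1, Stat5b, Socs2, Cish and Pim1 kept their direction in all 15. Of the 150 values of single genes, 9 turned in direction. Without both Xist-high libraries the log2 folds of Stat5a, Socs1, Socs3 and Pim2 were 0.039, 0.27, 0.098 and 0.020, and the median of the 6 SOCS, CISH and PIM genes was 0.059. Leaving out 1 library at a time gave -0.11 to 0.012 for Jak3, -0.10 to 0.0071 for Stat5a, -0.26 to 0.16 for Socs1, -0.32 to -0.010 for Socs3, -0.18 to -0.019 for Pim1 and -0.10 to -0.019 for Pim2; the cause was not tested, beyond fewer samples. Scaling moved the median of all genes by under 0.1 on the log2 scale and turned none of the 10.

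Over all tested genes 17 of 18690 were called, and 8 to 29 with 1 library left out. DESeq2 called 581 of 15200 genes, the fit without the low-count filter 840 of 33265 and that without both Xist-high libraries 762 of 19127. The 8 were without wildtype replicate 2 and the 29 without labelled knockout replicate 1. Of the 34 other pathway genes DESeq2 called 3, the fit without the filter 5 and that without both Xist-high libraries 2. Of the STAT5-responsive genes these settings called 3 of 14, 3 of 15 and 3 of 15 tested. The cause was not tested.

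Same-numbered libraries did not deviate together (r = -0.11, 0.030 and -0.12 over all tested genes for replicates 1 to 3), so the numbers were not taken to pair the libraries, although both replicate 1 libraries were high in Xist. With the replicate block edgeR called 9 genes, 0 of the 10 described here, 0 of the pathway list and 0 of the STAT5-responsive genes.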
